A study of Homo sapiens with 6 samples.

Results

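The ERBB receptors and their ligands were examined in NCI-H660 (H660) cells with and without silencing of MUC1, using 10 of the 28008 gene symbols in the count table. The members were the receptors EGFR, ERBB2, ERBB3 and ERBB4 and the ligands EGF, AREG, EREG, HBEGF, TGFA and NRG1, matched by symbol. Amphiregulin (AREG) was the member that changed most. Its transcripts rose 2.82-fold with doxycycline (DOX), from 1.42 ± 0.24 to 4.00 ± 0.80 CPM (SD, n = 3). CPM are counts divided by library size, after scaling for library composition. ERBB3 was the most abundant member, and EREG had 0 counts in all 6 libraries.

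ERBB proteins are receptor tyrosine kinases that pair on the cell membrane once a ligand is bound and then activate the RAS/ERK and PI3K/AKT pathways. EGFR binds EGF, AREG and TGFA; EGFR and ERBB4 both bind HBEGF, EREG and betacellulin (BTC); and ERBB3 and ERBB4 bind neuregulins such as NRG1. ERBB2 has no known ligand and acts as a partner, while ERBB3 has little kinase activity of its own and carries docking sites for PI3K. The transmembrane MUC1-C subunit is known to associate with these receptors at the membrane of carcinoma cells.

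H660 is an established neuroendocrine prostate cancer (NEPC) line. The cells carried 1 MUC1 shRNA in a tetracycline-inducible vector and had been selected in puromycin, and this held for both groups. DOX-negative cells received 0.1% DMSO as vehicle (n = 3) and DOX-positive cells received DOX at 500 ng/ml (n = 3). The replicates were triplicate cultures. The series held no cells with a control shRNA, so an effect of DOX itself and an effect of silencing cannot be told apart. The study describes a DOX exposure of a week. Nothing states that the cultures were begun independently, so p values measure the spread between them, which may be technical. In bulk RNA, fewer cells of a type and less RNA per cell cannot be told apart.

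Libraries held 47620696 to 74061121 counts. Normalized MUC1 abundance was 88.2, 90.2 and 79.6 CPM without DOX and 36.7, 37.2 and 29.9 CPM with DOX, so the targeted transcript followed the labels (log2 fold change -1.32, SE 0.096, adjusted p = 0.00017). The 7 neuroendocrine markers examined were all detected, with summed levels of 786 to 879 CPM without DOX and 656 to 761 CPM with DOX. NCAM1 (-0.50, adjusted p = 0.014) and INSM1 (-0.45, adjusted p = 0.039) fell among them, beside 4.87% of all tested genes called. CHGB was higher in all DOX-positive libraries (0.29, adjusted p = 0.17), ENO2 was at 0.13 (adjusted p = 0.71), and the summed level did not overlap between the groups. Of 4 luminal prostate markers, KLK3 and KLK2 had at most 1 count in a library. Of 6 markers of fibroblasts, leukocytes and endothelium, COL3A1 and PTPRC had at most 1 count, and the summed level of the list overlapped between the groups (24.9 to 30.7 against 21.8 to 28.0 CPM). In that list COL1A1 (0.60, adjusted p = 0.019) and CD68 (0.78, adjusted p = 0.019) rose, while COL1A2 was lower in all DOX-positive libraries without being called (-0.71, adjusted p = 0.20). The part of these marker changes in the results that follow was not tested.

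Levels of different genes were compared in TPM, the deposited values per gene length. ERBB3 had a mean of 21.8 TPM over the 6 libraries, with 15.8 TPM in the lowest and 26.5 TPM in the highest. Every library of ERBB3 lay above every library of EGFR, the next member at 4.65 TPM (3.46 to 5.96). TGFA followed at 4.00 TPM (3.13 to 4.66) and ERBB2 at 2.97 TPM (2.51 to 3.62). The ranges of EGFR and TGFA overlapped, as did those of TGFA and ERBB2.

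Below these, AREG (1.34 TPM, 0.52 to 2.40), BTC (1.22 TPM, 0.89 to 1.74) and ERBB4 (1.10 TPM, 0.74 to 1.44) had overlapping ranges. AREG exceeded BTC in 3 of 6 libraries, which were the 3 DOX-positive ones. NRG1 (0.54 TPM) and HBEGF (0.48 TPM) overlapped each other, and EGF (0.18 TPM) lay below both in every library. ERBB3 was above 92.9% of the symbols with any TPM, whereas EGF was above 30.3% of them. TPM of 1 gene shift between libraries with the few structured RNAs, such as RN7SL1 and RN7SK, that held 73.6% to 81.6% of all TPM. Changes with DOX were therefore read from CPM.

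**Figure D1:**
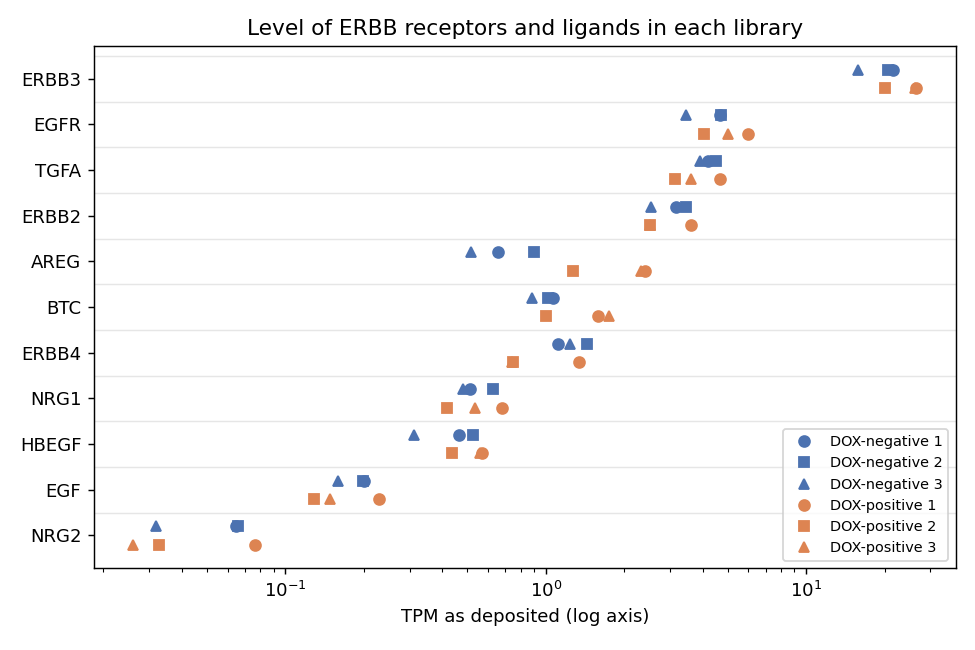
Deposited TPM (log axis) of each detected ERBB receptor and ligand, 1 point per library, with color for the group and marker shape for the replicate number. ERBB3 sits alone at 15.8 to 26.5 TPM. AREG is the only gene drawn whose DOX-positive points all lie to the right of its DOX-negative points. EREG, EPGN, NRG3 and NRG4, which have libraries at 0, are not drawn.

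Changes with DOX were tested by edgeR's quasi-likelihood test over 17026 genes, with p values adjusted by the Benjamini-Hochberg method over all of them. Of the 10 members, 9 passed the filter on low counts and 1 was called at an adjusted p under 0.05, while 4.87% of all tested genes were called (2.91% higher and 1.96% lower). Of the 9, 4 did not overlap between the groups in CPM, against 28.1% of all tested genes. With DOX, 3 of these were higher (14.8% of all genes) and 1 was lower (13.3% of all genes). The median log2 fold change of the 9 was -0.032, and that of all tested genes was 0.00034. Their median absolute log2 fold change was 0.20, against 0.13 for all tested genes, and 5 had an unadjusted p under 0.05, which 21.1% of all tested genes had. Whether the members differed from other genes as a group was not tested. A 3 against 3 permutation of a single gene cannot give a p below 0.10.

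Of the 4 receptors 0 were called with edgeR, while 3 (EGFR, ERBB3 and ERBB4) had an unadjusted p under 0.05 (21.1% of all tested genes) and DESeq2 called 2 (ERBB3 and ERBB4). The differences did not point one way. ERBB3 had 238, 216 and 213 CPM in DOX-negative replicates 1, 2 and 3 and 245, 281 and 301 CPM in the DOX-positive ones. All DOX-positive libraries were above, although DOX-positive replicate 1 lay only narrowly above the highest DOX-negative library. The log2 fold change was 0.31 (SE 0.087, 95% interval 0.12 to 0.50, edgeR adjusted p = 0.063). It was called when DOX-positive replicate 1 was left out, at 0.39 with an adjusted p of 0.028, where 6.02% of all genes were called. DESeq2, which called 6.01% of all genes, also called it, at 0.31 with an adjusted p of 0.027. Without DOX-positive replicate 3 it was 0.24, with an adjusted p of 0.18. Over all 19 alternatives the adjusted p ranged from 0.027 to 1.

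ERBB4, which binds neuregulins and has an active kinase, had 24.1, 29.5 and 32.6 CPM without DOX and 24.3, 20.4 and 16.6 CPM with DOX. The groups overlapped, because the highest DOX-positive library (24.3 CPM) was at the level of the lowest DOX-negative one (24.1 CPM). Both had replicate number 1, and no sign was seen that equal numbers paired libraries. The log2 fold change was -0.49 (SE 0.14, 95% interval -0.79 to -0.18, adjusted p = 0.068). ERBB4 was called when either library of replicate 1 was left out, at -0.63 (adjusted p = 0.025) for the DOX-positive one and at -0.60 (adjusted p = 0.035, with 3.68% of all genes called) for the DOX-negative one. It was smaller and not called when replicate 3 was left out, at -0.36 (adjusted p = 0.17) for the DOX-positive library and -0.40 (adjusted p = 0.28) for the DOX-negative one. DESeq2 also called it (-0.49, adjusted p = 0.011), and the adjusted p over the 19 alternatives ranged from 0.011 to 1.

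EGFR had 66.6, 63.4 and 60.3 CPM without DOX and 71.1, 72.7 and 74.2 CPM with DOX. Its groups did not overlap, with a small log2 difference of 0.20 (SE 0.072, 95% interval 0.039 to 0.35, adjusted p = 0.14). EGFR was called in 0 of 19 alternatives.

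ERBB2, the partner without a ligand, had 31.0, 31.9 and 30.2 CPM without DOX and 29.7, 31.0 and 25.7 CPM with DOX. The groups overlapped and the log2 difference of -0.11 (SE 0.090, adjusted p = 0.53) had a 95% interval of -0.31 to 0.087. ERBB2 overlaps MIEN1, which had a mean of 4508 counts, in the RefSeq annotation. The library kit marks strand, but the strand setting of the counting is not given in the sources used here, so reads of that overlap could fall to either gene.

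Among the ligands of EGFR, AREG had 1.30, 1.70 and 1.26 CPM without DOX and 4.01, 3.20 and 4.80 CPM with DOX. The lowest DOX-positive library was well above the highest DOX-negative one. These values rested on 83, 105 and 60 counts without DOX and 303, 176 and 354 counts with DOX. The log2 fold change was 1.50 (SE 0.18, 95% interval 1.10 to 1.89, adjusted p = 0.0024), and it was the 23rd largest of the 17026 tested genes. Of all tested genes, 2.91% were called higher. With 1 library left out, the AREG change was between 1.34 and 1.65, with adjusted p values of 0.0028 to 0.034. AREG was called in 18 of the 19 alternatives. The other was limma on unfiltered log2(TPM + 1), where it was 0.81 with an adjusted p of 0.39. That fit called 0 of 21241 genes, with 1248 at an unadjusted p under 0.05. The 18 include the fits on TPM filtered at a mean of at least 1. AREG passed that filter through its DOX-positive libraries, with means of 0.69 TPM without DOX and 2.00 TPM with DOX.

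TGFA, the most abundant ligand, had 35.3, 35.9 and 40.2 CPM without DOX and 32.9, 33.3 and 31.7 CPM with DOX. All DOX-positive libraries were below, and the log2 difference of -0.19 (SE 0.082, 95% interval -0.37 to -0.0078) had an adjusted p of 0.22. EGF itself had 2.03, 1.91 and 1.97 CPM without DOX and 1.94, 1.65 and 1.56 CPM with DOX, with overlap between the groups (-0.20, SE 0.15, adjusted p = 0.51). HBEGF, a heparin-binding ligand shed from the membrane, had 1.85, 1.97 and 1.51 CPM without DOX and 1.91, 2.20 and 2.32 CPM with DOX. Its groups also overlapped (0.26, SE 0.16, 95% interval -0.087 to 0.61, adjusted p = 0.38).

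NRG1, the neuregulin that binds ERBB3 and ERBB4, had 9.97, 11.5 and 11.5 CPM without DOX and 11.1, 10.3 and 10.9 CPM with DOX. The log2 difference was -0.032 (SE 0.097, adjusted p = 0.89), and its 95% interval ran from -0.24 to 0.18. NRG1 overlaps the noncoding NRG1-IT1, which had a mean of 112 counts.

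**Figure D2:**
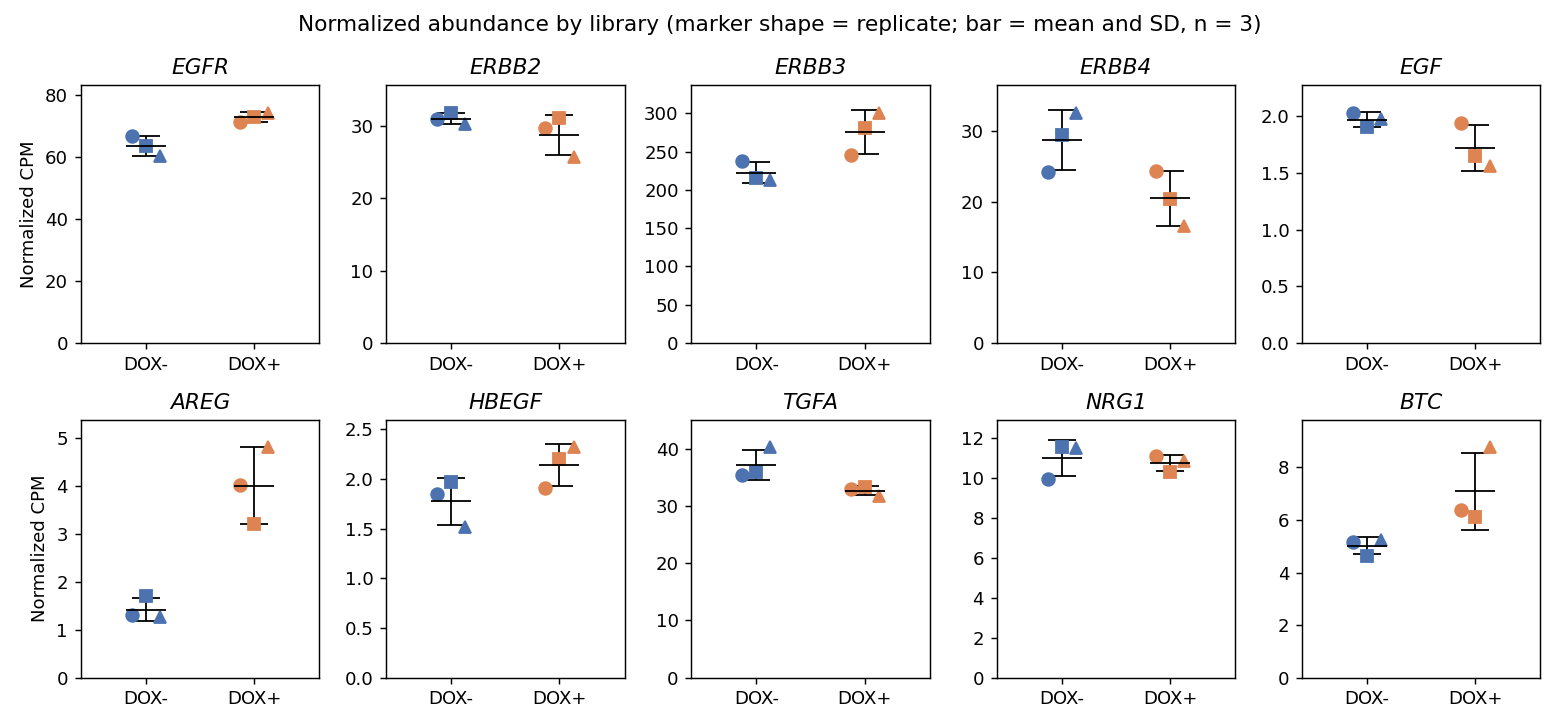
Normalized CPM of 9 members and BTC in each library, with DOX-negative (DOX-) and DOX-positive (DOX+) libraries side by side and each vertical axis starting at 0. Markers are replicates 1 (circle), 2 (square) and 3 (triangle), and bars are the mean and SD (n = 3). AREG moves from 1.42 to 4.00 CPM, whereas for ERBB4 the highest DOX-positive library sits at the level of the lowest DOX-negative one. Equal marker shapes are not known to mark paired libraries.

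**Figure D3:**
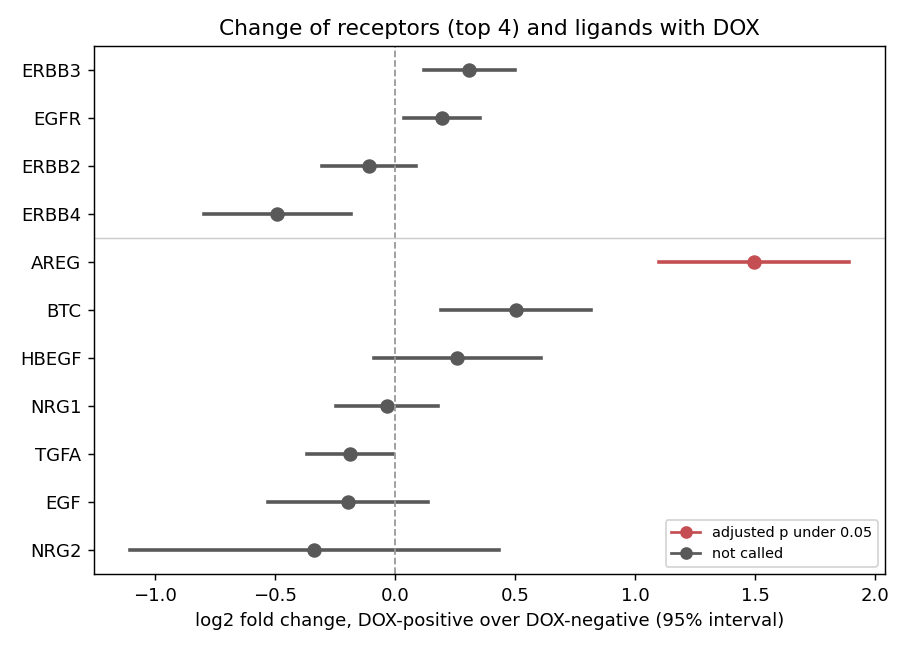
Log2 fold change of each tested receptor and ligand with its 95% interval, DOX-positive over DOX-negative. AREG at 1.50 is the member past an adjusted p of 0.05 (red), and the intervals of ERBB2, HBEGF, NRG1, EGF and NRG2 span 0.

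The other ERBB ligands of the family were then examined. BTC had 5.16, 4.64 and 5.23 CPM without DOX and 6.39, 6.11 and 8.76 CPM with DOX, so that all DOX-positive libraries were above. The log2 fold change was 0.50 (SE 0.14, 95% interval 0.19 to 0.82, adjusted p = 0.067). It fell short of the threshold here and passed it in 4 of 19 alternatives. These were DESeq2 (0.50, adjusted p = 0.027), no filter on low counts (0.51, adjusted p = 0.033), a replicate block (0.48, adjusted p = 0.037) and the fit without DOX-positive replicate 2 (0.60, adjusted p = 0.043, with 4.8% of all genes called). Without DOX-positive replicate 3 it was 0.32 with an adjusted p of 0.19.

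NRG2 was close to the limit of the filter, at 13 to 34 counts per library (-0.33, SE 0.35, adjusted p = 0.64). EPGN, NRG3 and NRG4 had at most 2 counts in a library and were not tested. EREG, which encodes epiregulin, had 0 counts in each library, where a count of 0 allows up to 3 counts, or 0.040 to 0.063 CPM. These limits cover counting error only.

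AREG and 3 other ligands lie side by side on chromosome 4, which allowed the change to be viewed in its genomic surroundings. In RefSeq (GRCh38.p14) the order along the chromosome is EPGN (chr4:74308470-74316789), EREG (chr4:74365145-74388749), AREG (chr4:74445136-74455005) and BTC (chr4:74744759-74794523), with BTC on the minus strand and the others on the plus strand. The submitters' processing notes name the same genome release, GRCh38. EREG ends 56.4 kb before AREG starts, and AREG ends 290 kb before BTC. Within this span of 486 kb the level without DOX ran from 0 counts for EREG to 5.01 ± 0.32 CPM for BTC (SD, n = 3).

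Of the 14 genes within 600 kb of AREG that were in the count table, 6 were tested and 3 were called, AREG itself included, all higher with DOX, as were 2.91% of all tested genes. Beside AREG these were the chemokine gene CXCL2 (0.69, SE 0.18, adjusted p = 0.049), at 0.90 ± 0.12 and 1.46 ± 0.094 CPM, and PARM1 (0.48, SE 0.11, adjusted p = 0.033), at 35.9 ± 3.35 and 50.2 ± 7.85 CPM (SD, n = 3). MTHFD2L, next to EPGN, was at 8.50 ± 0.82 and 8.41 ± 0.70 CPM with a difference of -0.011 (SE 0.11, adjusted p = 0.97). The neighbours were picked by distance after the values of AREG were known, so the call of AREG in this window is not a separate result. CXCL2 and PARM1 were not followed through the alternatives. The genes called were not contiguous, because EPGN and EREG at or near 0 and MTHFD2L lie between CXCL2 and AREG.

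**Figure D4:**
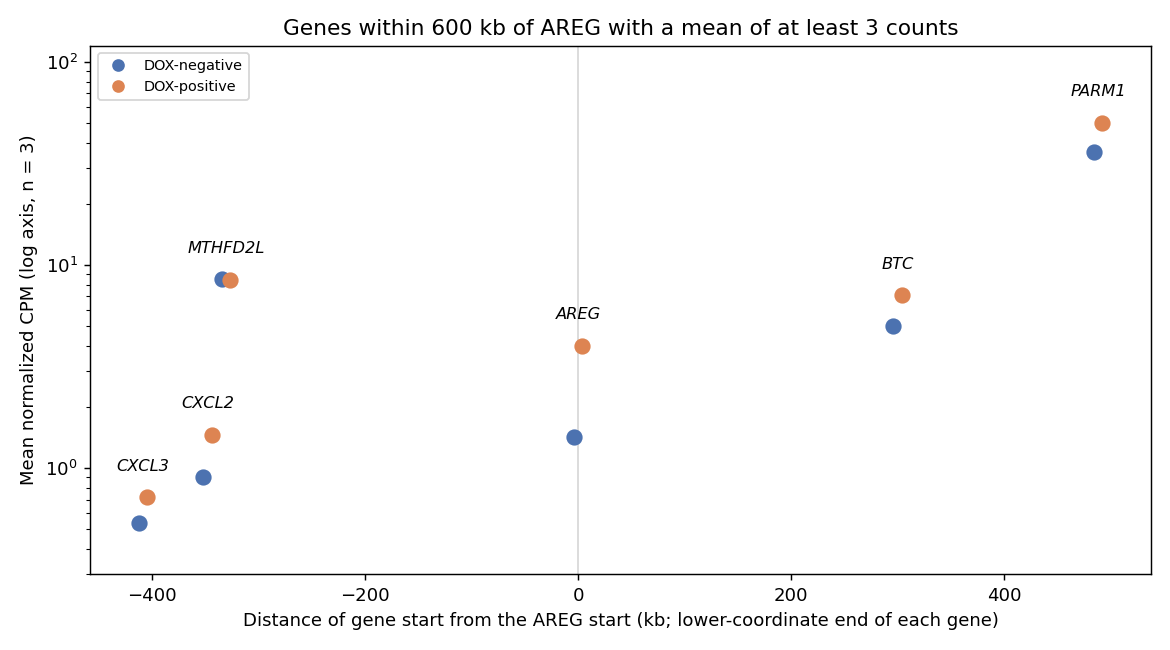
Mean normalized CPM (log axis, n = 3) of genes within 600 kb of AREG that had a mean of at least 3 counts, against the distance of their lower coordinate from the AREG start in kb. AREG shows the widest gap between the groups, MTHFD2L shows none, and EREG and EPGN, which lie between them, are too low to be drawn.

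The promoters of these 4 neighbours are shown because they are adjacent genes of 1 family with different levels, of which AREG was called. Each line runs 5′ to 3′ from 250 bases before to 50 bases after the RefSeq start (GRCh38.p14), and capitals mark matches on either strand to the cAMP response element TGACGTCA, the AP-1 site TGANTCA, the TEAD site GGAATG or the TATA box TATAAA.
AREG (chr4:74444886-74445185, plus strand): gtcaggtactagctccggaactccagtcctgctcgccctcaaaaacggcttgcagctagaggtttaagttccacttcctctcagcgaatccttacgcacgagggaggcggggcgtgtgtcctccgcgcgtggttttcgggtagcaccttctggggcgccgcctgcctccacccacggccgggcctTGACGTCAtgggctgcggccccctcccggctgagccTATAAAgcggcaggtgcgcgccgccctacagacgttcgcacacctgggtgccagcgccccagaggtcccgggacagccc
BTC (chr4:74794474-74794773, minus strand): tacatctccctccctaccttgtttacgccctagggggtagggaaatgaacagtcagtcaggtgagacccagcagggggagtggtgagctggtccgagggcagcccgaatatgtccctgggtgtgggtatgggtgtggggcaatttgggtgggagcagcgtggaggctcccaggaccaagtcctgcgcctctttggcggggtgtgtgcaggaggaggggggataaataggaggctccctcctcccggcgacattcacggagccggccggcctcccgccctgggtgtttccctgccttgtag
EREG (chr4:74364895-74365194, plus strand): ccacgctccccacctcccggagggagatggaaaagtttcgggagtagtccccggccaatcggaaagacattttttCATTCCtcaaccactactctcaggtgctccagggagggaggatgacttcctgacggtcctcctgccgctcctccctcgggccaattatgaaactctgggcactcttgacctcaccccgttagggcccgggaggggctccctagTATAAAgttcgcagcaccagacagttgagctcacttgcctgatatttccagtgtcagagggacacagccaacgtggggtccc
EPGN (chr4:74308220-74308519, plus strand): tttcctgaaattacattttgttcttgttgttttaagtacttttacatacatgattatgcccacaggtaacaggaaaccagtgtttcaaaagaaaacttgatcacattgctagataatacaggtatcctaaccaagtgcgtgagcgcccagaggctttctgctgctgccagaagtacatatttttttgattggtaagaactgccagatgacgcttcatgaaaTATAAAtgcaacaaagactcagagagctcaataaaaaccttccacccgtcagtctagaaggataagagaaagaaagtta

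The AREG window held 1 full cAMP response element, beginning 65 bases before the start, and a TATA box beginning 29 bases before it. The full element was found in 540 of 27305 promoters of the same length (1.98%). Of the 13 ligand and receptor genes with a promoter in the table, AREG was the one that held it. The shorter run TGACG, which is not marked on its own, was found in 25% of promoters. Besides AREG, it occurred in EREG (125 bases before the start), EPGN (44 before and 17 after) and TGFA (154 before). The shorter run thus did not set AREG apart from EREG and EPGN. TATA boxes, present in 12% of promoters, also occurred in EREG, 32 bases before the start, and in EPGN, 29 bases before it, although EREG had 0 counts and EPGN at most 2 in a library. The BTC window held none of the 4 motifs. EREG held a TEAD match 175 bases before its start, a motif found in 14% of promoters, and none of these 4 windows held the AP-1 site (7.76% of promoters). A match is a run of letters and was not tested for binding. ERBB3 and NRG1 had no promoter in the table.

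The mix of receptors and ligands was compared as shares of summed TPM, which do not depend on the structured RNAs. ERBB3 held 70.6%, 68.3% and 68.6% of the summed receptor TPM without DOX and 70.8%, 73.4% and 76.0% with DOX. The DOX-positive shares were all above, although the lowest of them nearly met the highest DOX-negative share. ERBB4 held 4.60% ± 0.87 without DOX and 2.82% ± 0.73 with DOX (SD, n = 3), and ERBB2 10.9% ± 0.50 and 8.73% ± 1.24. EGFR stayed near 15% in both groups (15.3% ± 0.25 and 15.1% ± 0.76). Within a library, ERBB3 was 12.8 to 19.3 times ERBB4 in TPM without DOX and 19.7 to 35.4 times with DOX.

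The ligand mix differed more. AREG held 9.12%, 11.5% and 8.22% of the summed ligand TPM without DOX and 23.5%, 19.8% and 25.9% with DOX. TGFA, the leading ligand in every library, held 58.6%, 57.5% and 62.0% without DOX and 45.6%, 48.7% and 40.4% with DOX. The groups did not overlap for either ligand. TGFA was 5.00 to 7.54 times AREG in TPM without DOX and 1.56 to 2.46 times with DOX. For the shares of ERBB2, ERBB3, ERBB4, AREG, TGFA, EGF, NRG1, BTC and NRG4 the exact two-sided permutation p was 0.10, the smallest that 3 against 3 allows, and 0.16 after adjustment over the 14 shares tested. For NRG4 this share rested on at most 2 counts in a library. Shares of 1 sum are not independent of each other, and the smaller share of TGFA includes the larger share of AREG.

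Further genes of the pathway were described from lists written from general knowledge, by their counts and medians. Of 10 genes for ligand shedding, including the metalloproteases ADAM10 and ADAM17 that release membrane-bound ligands, 0 were called with edgeR and 4 had an unadjusted p under 0.05, beside 21.1% of all tested genes. ADAM10 was at 99.4 ± 5.18 and 89.3 ± 12.8 CPM (SD, n = 3; -0.15, adjusted p = 0.42) and ADAM17, the main sheddase of AREG, at 50.2 ± 1.18 and 52.7 ± 2.93 CPM (0.070, adjusted p = 0.65). TIMP3, an inhibitor of ADAM17, was nearest to the threshold (0.66, SE 0.17, adjusted p = 0.051). It was at 1.86 ± 0.32 and 2.97 ± 0.49 CPM. The groups did not overlap for 5 of the 10 genes, TIMP3 included. All of these were higher with DOX, as were 14.8% of all tested genes without overlap. DESeq2 called 1 gene of this list, and 2 were called without DOX-positive replicate 1.

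Of 30 adaptors and effectors, from GRB2 and SHC1 to RAS, RAF, MEK, ERK, AKT and STAT genes, 0 were called with edgeR, 0 with DESeq2 and 3 had an unadjusted p under 0.05, beside 21.1% of all tested genes. Their changes lay between -0.13 and 0.32 on the log2 scale, with a median of 0.038. Without DOX-positive replicate 2, 4 of them were called, beside 4.8% of all genes.

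Of 18 receptor attenuators, 4 were called, 3 higher and 1 lower, beside 4.87% of all tested genes. The groups did not overlap for 10 of the 18, and for 28.1% of all tested genes. SPRY4, an inhibitor of the RAS/ERK pathway, rose from 2.08 ± 0.20 to 3.85 ± 0.74 CPM (0.89, SE 0.17, adjusted p = 0.014). ERRFI1 (MIG6), which binds and blocks the EGFR kinase, rose from 47.0 ± 3.07 to 70.5 ± 9.67 CPM (0.58, SE 0.099, adjusted p = 0.010). Its libraries had 50.5, 45.7 and 44.8 CPM without DOX and 65.2, 64.7 and 81.7 CPM with DOX. PTPN1, a phosphatase of receptor kinases, rose by 0.33 (SE 0.076, adjusted p = 0.031).

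LRIG1, a membrane protein that promotes the breakdown of ERBB receptors, fell from 132 ± 5.67 to 103.9 ± 10.5 CPM (-0.35, SE 0.085, adjusted p = 0.038). LRIG1 overlaps SLC25A26, which had a mean of 1280 counts. The median of the list was 0.053. Of these genes 0 were called when DOX-negative replicate 2 or 3 was dropped, where calls over all genes also fell from 829 to 127 and 58, and 2 were called when DOX-negative replicate 1 or DOX-positive replicate 3 was dropped. The changes themselves moved little in the fits with 0 calls, at 0.56 and 0.55 for ERRFI1 and 0.84 and 0.96 for SPRY4.

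Receptor tyrosine kinases of other families were taken as the nearest comparison for the 4 ERBB receptors. Of 24 listed, 20 were tested and 6 were called, 4 higher and 2 lower, beside 4.87% of all tested genes. EPHA2, an ephrin receptor, rose from 9.24 ± 0.93 to 16.0 ± 3.03 CPM (0.79, SE 0.14, adjusted p = 0.010), FGFR1 from 2.88 ± 0.53 to 4.78 ± 0.43 CPM (0.72, adjusted p = 0.020), ROR1 by 0.70 (adjusted p = 0.019) and TYRO3 by 0.58 (adjusted p = 0.036). The stem cell factor receptor KIT fell from 206 ± 8.19 to 163 ± 16.3 CPM (-0.33, adjusted p = 0.042) and the insulin receptor INSR from 149.7 ± 3.29 to 124 ± 3.20 CPM (-0.27, adjusted p = 0.041). Whether the ERBB receptors differed from these receptors as a group was not tested. Calls in this list numbered 0 when DOX-negative replicate 2 or 3 was dropped, with EPHA2 at 0.76 and 0.74, and 3 when DOX-positive replicate 3 was, where 375 of all genes were called.

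**Figure D5:**
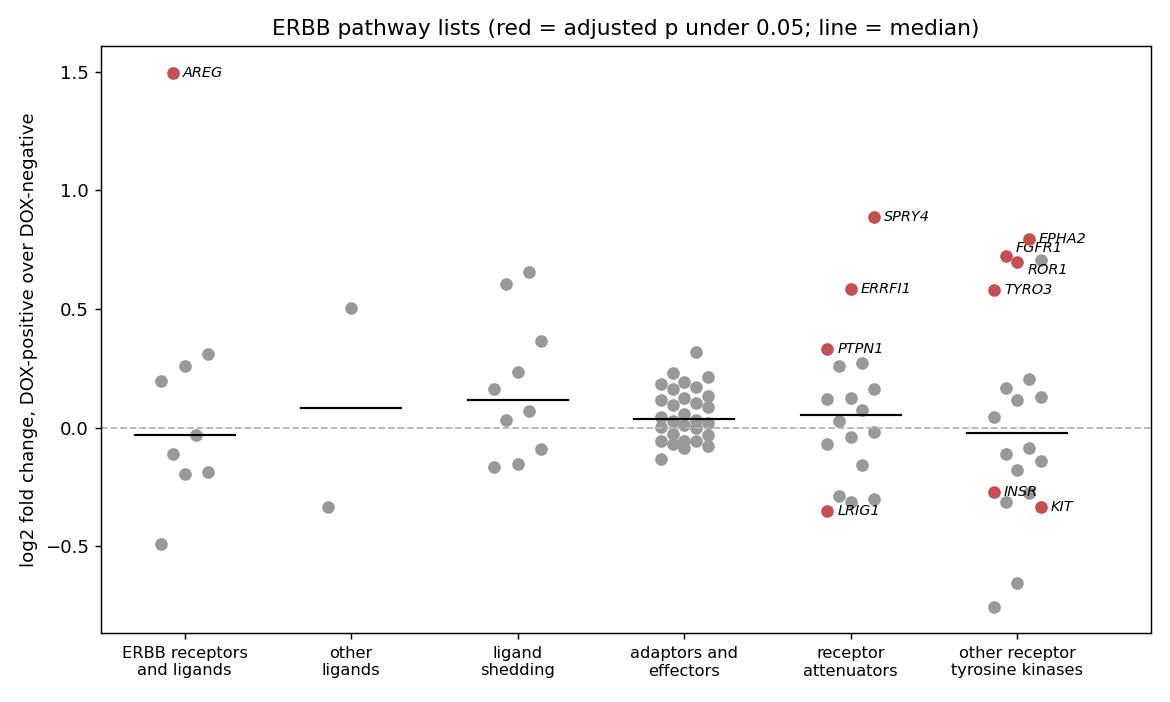
Log2 fold change of each tested gene in the ERBB family and 5 pathway lists, with called genes in red and named and the median of each list as a line. Adaptors and effectors stay between -0.13 and 0.32, whereas AREG at 1.50 and SPRY4 at 0.89 are the highest called points drawn.

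Among 5 genes of membrane partners, transcripts of galectin 3 (LGALS3), a lectin that can bridge MUC1 and EGFR, rose while those of MUC1 fell. Protein was not measured. LGALS3 had 9.36, 7.55 and 8.04 CPM without DOX and 13.1, 15.3 and 20.6 CPM with DOX (0.97, SE 0.15, adjusted p = 0.0078), with no overlap between the groups. Of all tested genes, 4.87% were called and 28.1% did not overlap. LGALS3 was not called on the 3 sets of deposited TPM or without DOX-negative replicate 3. E-cadherin (CDH1), at 228 ± 6.27 and 246 ± 4.28 CPM, and plakoglobin (JUP) had adjusted p values of 0.37 and 0.91.

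Genes with patterns most like those of ERBB3 and AREG were named by the smallest root mean square difference of centered log2 CPM over the 6 libraries. For ERBB3 these were BLCAP (0.023), LGMN (0.026) and GPR161 (0.027). For AREG they were RFTN1 (0.16), PLEKHS1 (0.22) and CLIC5 (0.22), with log2 fold changes of 1.42, 1.16 and 1.62. These genes were picked for their likeness to AREG, so their rise is not a separate result. Among 17022 genes and 6 libraries, close matches of this kind are a description of these libraries.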

How the data were processed

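RNA-seq of H660 cells was analysed in 6 libraries, 3 per group, grouped by sample title, since the treatment field of the labels had 1 entry for all of them. The labels give a TruSeq Stranded mRNA kit, and a medium that differs from that in the study's methods. The authors deposited raw counts per gene and TPM values (transcripts per gene length, to a fixed library sum) as separate tables. The submitters' processing notes name STAR, DESeq2 and GRCh38, whereas the annotation, tool versions and strand setting of the counting are not given in the sources used here. Total counts were 47620696 to 74061121 per library.

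Counts were tested with edgeR 4.0.16 in R 4.3.3 (filterByExpr, TMM, robust quasi-likelihood, Benjamini-Hochberg, 17026 genes), with limma 3.58.1 and DESeq2 1.42.0 as alternatives. TPM were used for levels between genes and, as log2 after adding 1 or 0.1, in alternatives. Genes called at an adjusted p under 0.05 were termed higher or lower. Intervals of 95% come from the edgeR fit. Shares were compared by exact permutation. The procedure was tested on simulated data.

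The 10 members, the lists and the tests were chosen with earlier results of these data known. Named genes were all members, 5 other ligands, MUC1, up to 6 called genes per list and the 3 genes most like ERBB3 and AREG. Other genes (ADAM10, ADAM17, TIMP3, CDH1, JUP, CHGB, ENO2, COL1A2, RET, CTNND1, CXCL2, PARM1 and MTHFD2L) were named after their values were seen. There were 19 alternatives, of which TPM rescaled without 6 structured RNAs was chosen after seeing the data. Promoters came from a RefSeq table (GRCh38.p14) that held 8 of the 10 members.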

Additional observations from a re-analysis of the deposited data

How the results depend on the processing

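Of the members, AREG kept its direction in all 19 alternatives and was called in 18, and EGFR, ERBB2, EGF, HBEGF and TGFA kept their direction and were called in none that tested them. The calls of AREG on filtered TPM rested on a filter that it passed through its DOX-positive libraries. On unfiltered log2(TPM + 1), AREG (0.81, adjusted p = 0.39 by limma) and MUC1 (-1.22, adjusted p = 0.29) were not called. ERBB3 was called with no filter (0.31, adjusted p = 0.038 by edgeR), with DESeq2 (0.31) and with a replicate block (0.31, adjusted p = 0.045), and ERBB4 with DESeq2 (-0.49). With 1 library left out, the change was 0.24 to 0.39 for ERBB3, -0.63 to -0.36 for ERBB4 and -0.099 to 0.0047 for NRG1. NRG1 changed sign, at values near 0, on unfiltered log2(TPM + 1) (0.0017), on rescaled TPM (0.0075) and when a library of replicate 2 was dropped (0.0047 for the DOX-negative one, 0.00091 for the DOX-positive one). The cause of these differences was not tested.

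Members called numbered 1 with edgeR, 2 with no filter, 3 with DESeq2, 0 on unfiltered log2(TPM + 1), 2 with the replicate block and 1 to 3 with 1 library left out. Over all genes, 829 became 1355 with DESeq2, 30 and 35 on filtered TPM with 1 and 0.1 added, 0 on unfiltered TPM and 276 on rescaled TPM. Leaving out 1 library gave 58 (DOX-negative replicate 3) to 1035 (DOX-positive replicate 1), with 127 when DOX-negative replicate 2 and 375 when DOX-positive replicate 3 was dropped. Fits without a library also have fewer samples.

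Other ligands had 0 calls with edgeR and 1 with no filter, DESeq2 or the block (0 to 1 with 1 library left out). Ligand shedding had 0, and 1 under the same 3 settings (0 to 2). Adaptors and effectors ranged from 0 to 4 with 1 library left out. Receptor attenuators had 4, with 0 on each of the 3 sets of deposited TPM, 1 on rescaled TPM and 0 to 4 with 1 library left out. Other receptor tyrosine kinases had 6, with 0 on deposited TPM, 1 on rescaled TPM and 0 to 5. Membrane partners had 2, with 1 on both filtered TPM sets, 0 on unfiltered TPM and 1 to 2. The 11 called genes named from these lists kept their direction in all 201 values and their call in 133.

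Libraries of equal replicate number showed no sign of being paired, although 3 libraries a group cannot exclude pairing. Deviations of same-numbered libraries had correlations of -0.56, 0.022 and -0.077 over 14587 genes, and 0 of the 6 libraries correlated best with its own number. With the replicate block 998 genes were called. EREG, EPGN, NRG3 and NRG4 did not pass the filter on low counts, and 3 libraries a group cannot give an exact p below 0.10.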

Other observations

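Among receptor tyrosine kinases outside the ERBB family, KIT and RET were at levels near that of ERBB3. KIT had a mean of 21.4 TPM without DOX and 17.6 TPM with DOX, and RET had 18.4 and 17.1 TPM, beside 19.3 and 24.3 TPM for ERBB3. RET was not called (-0.14, adjusted p = 0.31 by edgeR). ERBB3 was thus below KIT without DOX and above it with DOX in mean TPM, an order that was not tested.

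Catenin delta 1 (CTNND1), which binds E-cadherin in epithelial cells, had a mean of 0.28 CPM (SD 0.11, n = 3) in DOX-negative cells and 0.30 CPM (SD 0.10, n = 3) in DOX-positive ones, whereas CDH1 was at 228 and 246 CPM. The annotated readthrough gene TMX2-CTNND1 overlaps CTNND1, and how reads of the overlap were counted was not tested.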
